A study of Mus musculus with 8 samples.

Results

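The glutathione S-transferases (Gst), UDP-glucuronosyltransferases (Ugt) and sulfotransferases (Sult) of mouse liver were examined on standard chow (STD) and on an atherogenic diet (ATH). Their genes were taken as all non-control probes of the array whose gene name began with Gst and a class letter (a, k, m, o, p, t or z) and a number, with Ugt and a number, or with Sult and a number. This gave 44 genes of the 27962 gene names on the array: 19 Gst, 14 Ugt and 11 Sult genes, represented by 59 probes. Where a gene had several probes, the probe with the highest mean signal over all arrays stood for it.

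The livers came from male C57BL/6 mice that were 14 to 17 weeks old when the experiment began and received either STD or ATH for 4 weeks. Both groups were wild type, and the labels describe ATH as rich in fat and cholesterol, and the study's methods add that it contained cholic acid, so the contribution of each of these components cannot be told apart. Total RNA of 4 livers per diet was labelled with Cy3 and hybridised to 8 one-colour arrays, 1 mouse per array, so precision is limited by having 4 arrays per diet. A single slide held the STD arrays and another the ATH arrays, and effects of slide and of diet therefore cannot be told apart.

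Conjugation is the step of detoxification in which a polar group is attached to a drug, hormone, bile pigment or reactive product so that it can be excreted. Gst enzymes attach glutathione to electrophiles, Ugt enzymes of the endoplasmic reticulum attach glucuronic acid from UDP-glucuronic acid, and Sult enzymes of the cytosol attach sulfate from the donor PAPS. The liver is rich in all of these enzymes, and many of their genes are known targets of the xenobiotic sensors Nr1i2 (PXR), Nr1i3 (CAR) and Ahr and of the oxidant sensor Nfe2l2 (NRF2).

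Between 72.3% and 77.8% of the spots on each array were well above background, and the correlation of scaled log2 signals over all detected probes was 0.971 to 0.990 among ATH arrays and 0.986 to 0.991 among STD arrays. Of 10 hepatocyte marker genes, 8 had a probe under the name searched and all of these were detected. The log2 of their summed scaled signal was 10.87 to 10.96 on STD and 10.32 to 10.77 on ATH, and that of 10 macrophage markers was 6.51 to 6.74 on STD and 7.46 to 9.57 on ATH. With no scaling the median difference of the 8 hepatocyte markers turned from -0.21 to 0.23 on the log2 scale, and that of the macrophage markers was 1.81 with scaling and 2.25 without. On ATH 2 of the 8 hepatocyte markers were lower and 6 of the 10 macrophage markers were higher at 5% false discovery rate (limma). Among all detected probes 4.94% were called lower and 3.06% higher. RNA of whole liver was measured, so fewer cells of a type and less RNA per cell cannot be told apart.

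The probes of the Ugt1a locus on chromosome 1 are shown first, because their transcripts share sequence. Ugt1a genes each have a first exon of their own, which is spliced to exons that all of them share, and the first exon sets which substrates the enzyme binds. The sequences are written 5′ to 3′ with positions in the array design's build mm7. The probe named Ugt1a9, at chr1:87975078-87975137, the second probe named Ugt1a6b, at chr1:88010877-88010936, and the probe named Ugt1a1, at chr1:88115927-88115986, lie apart along the locus. The brighter Ugt1a6b probe, at chr1:88122519-88122578, starts 6592 bases beyond the Ugt1a1 probe, and only its first 30 bases are printed.
Ugt1a9: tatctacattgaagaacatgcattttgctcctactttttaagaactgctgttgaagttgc
Ugt1a6b, second probe: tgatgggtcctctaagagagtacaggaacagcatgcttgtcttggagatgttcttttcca
Ugt1a1: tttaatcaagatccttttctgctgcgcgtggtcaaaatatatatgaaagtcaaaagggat
Ugt1a6b, brighter probe, first 30 bases: ttgtgccggaatttgatgaaaaccaaagta
In RefSeq's annotation of build GRCm38.p6 the 9 Ugt1a genes start between positions 88055411 and 88211959 but all end within 1004 bases of each other. A probe in the shared exons cannot tell the Ugt1a transcripts apart. The brighter Ugt1a6b probe lies beyond the other probes of the locus in mm7, but the annotation is of another build, and whether the probe falls in the shared exons was not tested.

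Of the 44 genes, 11 were lower and 0 were higher on ATH at a false discovery rate of 5% (limma, Benjamini-Hochberg over 31056 detected probes). Over all detected probes 4.94% were called lower and 3.06% higher, and 25% of the Gst, Ugt and Sult genes were called lower. These units differ, because each of the 44 genes was counted once by its brightest probe, whereas every detected probe entered the other shares. A share over probes of like brightness was not counted. At an unadjusted p under 0.05, 29 members were lower and 0 were higher by limma. By the test of the study's methods, used as an alternative, 23 were lower and 0 were higher at that level. By that test 0 passed at a false discovery rate of 5%. The share of all detected probes at the unadjusted level was not counted, so the counts of 29 and 23 cannot be set against it. The genes called lower were 5 of 19 Gst genes (26.3%), 5 of 14 Ugt genes (35.7%) and 1 of 11 Sult genes (9.09%). The difference between the families in these shares was not tested. The Sult gene called, Sult3a1, entered the fit through STD alone, with ATH values near background. At a false discovery rate of 1%, at which 0.528% of all probes were called in either direction and 0.335% lower, Gstt3 was the gene that passed. With each array left out in turn the 5% count ranged from 1 gene without STD1 to 17 without ATH2, and it was 3 without STD3 or STD4, 4 without STD2 or ATH3 and 5 without ATH4. The shares of all probes called in these fits were not counted, so the counts cannot be set against them.

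The median log2 fold change, ATH minus STD, was -0.50 over the Gst genes, -0.66 over the Ugt genes and -0.37 over the Sult genes, beside -0.15 over all detected probes. The mean was lower on ATH for 18 of 19 Gst, 13 of 14 Ugt and 7 of 11 Sult genes, whereas 67.0% of all detected probes had a lower mean. In 23 of the 44 genes every ATH array was below every STD array, which was the case for 13.8% of all detected probes. No gene of the 3 families had every ATH array above every STD array, as 6.01% of all probes did.

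**Figure D1:**
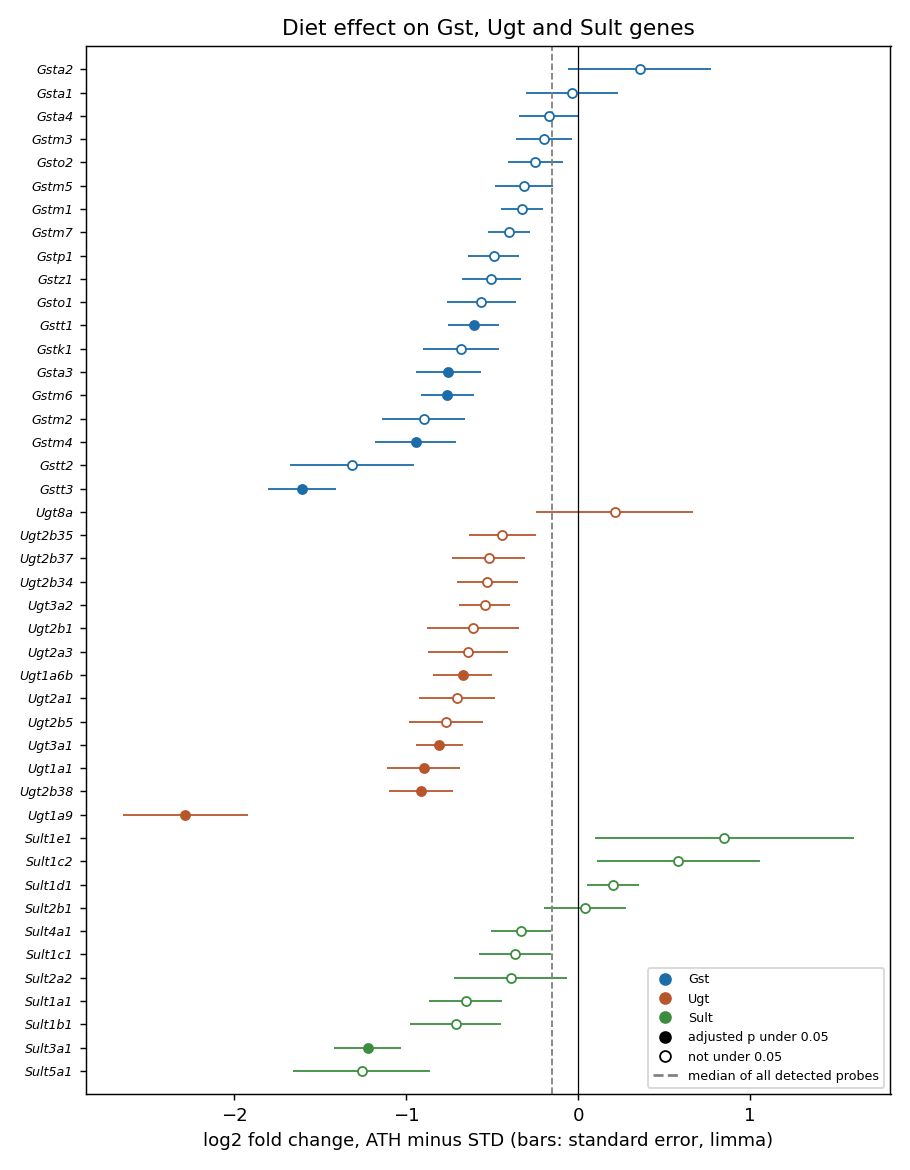
Log2 fold change (ATH minus STD, n = 4 mice per diet) of each of the 44 genes on the x axis, ordered within family; bars are standard errors from limma, filled points have an adjusted p under 0.05, and the dashed line is the median of all detected probes at -0.15. The 11 filled points all lie left of zero, and 37 of the 44 genes lie left of the dashed line.

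These directions depend on the scaling of the arrays. Signals were scaled to the 75th percentile of each array, which was higher on the ATH arrays by 0.446 on the log2 scale, whereas the spike-in controls were higher by 0.135. With no scaling the median over all detected probes was 0.30, the Gst and Ugt medians were -0.06 and -0.21, and the Sult median turned to 0.08. With spike-in scaling the all-probe median was 0.16 and the Gst, Ugt and Sult medians were -0.19, -0.34 and -0.06. Scaling by the 75th percentile, the median or the spike-ins, or not at all, shifts every gene of an array alike, so the gap of -0.40 between the median of the 44 genes and that of all probes is the same in these by construction. With quantile normalization, which can change that gap, it was -0.30, with -0.23 for Gst, -0.34 for Ugt and -0.24 for Sult, and with normexp background correction it was -0.34, with -0.28, -0.43 and -0.10. The 11 genes called lower had a lower mean on ATH under each of these settings, but with another scaling fewer were called. With no scaling 4 genes were called lower (1.2% of all probes), with spike-in scaling 4 (1.31%), with quantile normalization 5 (2.83%) and with median scaling 6 (2.71%). Gstt3, Ugt1a9 and Ugt3a1 were called lower under the 75th percentile, median, quantile, spike-in and no scaling. Sult3a1 was called under all of these but quantile normalization, where its adjusted p was 0.0508 (limma). It entered the fit through STD alone (detected on 4 STD arrays and 1 ATH array), so its ATH values lie near background. Its calls across scalings therefore add no support.

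**Figure D2:**
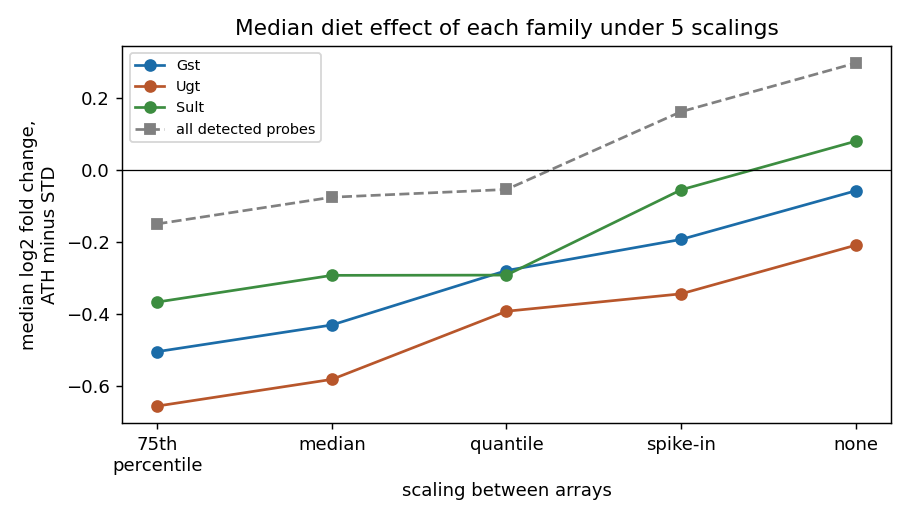
Median log2 fold change (ATH minus STD, y axis) of the Gst, Ugt and Sult genes and of all detected probes under 5 ways of scaling the arrays (x axis, in no numerical order). The distance between the family lines and the line of all probes is fixed by construction except at quantile normalization; the Sult line passes zero with no scaling, at 0.08.

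Gstt3 had the largest decrease of the Gst genes and the lowest adjusted p of all 44. The theta class enzymes, encoded together on chromosome 10, conjugate small halogenated compounds and sulfate esters. The scaled log2 signal of Gstt3 (probe at chr10:75429872-75429931, mm7) was 5.243, 4.998, 4.609 and 4.944 in STD mice 1 to 4. It was 3.78, 3.29, 3.29 and 3.01 in ATH mice 1 to 4. The groups did not overlap, and the lowest STD mouse was above the highest ATH mouse. Gstt3 fell by 1.61 on the log2 scale (SE 0.197, adjusted p = 0.00664, limma), which is 3.04-fold, and the call held with each array left out in turn (adjusted p 0.00582 to 0.0247).

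Gstt1 (chr10:75442599-75449763), the neighbour of Gstt3, was at 2.26, 2.15, 2.24 and 1.96 in STD mice and at 1.85, 1.61, 1.38 and 1.35 in ATH mice. The groups did not overlap, although STD4 and ATH1 lay close together. The change was -0.61 (SE 0.149, adjusted p = 0.0443, limma), and without ATH1 or ATH2 it still passed, but without any other single array it did not (adjusted p up to 0.113). Gstt2, the remaining theta gene, also had groups that did not overlap, with a difference of -1.31 (SE 0.362) that did not pass (adjusted p = 0.0579, limma). The median of the 3 theta genes was -1.31.

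Of the mu class, a cluster of genes on chromosome 3 whose enzymes conjugate a broad range of electrophiles, 2 of 7 genes were called and all 7 had a lower mean on ATH (median -0.40). Among all detected probes 4.94% were called lower and 67.0% had a lower mean. Gstm6 (chr3:107759339-107759483) was at 3.68, 3.64, 3.54 and 3.34 in STD mice and at 3.07, 2.84, 2.48 and 2.78 in ATH mice. No ATH mouse reached the lowest STD mouse, and Gstm6 fell by 0.76 (SE 0.154, adjusted p = 0.0279, limma). Gstm4 (chr3:107859172-107859231) was at 2.47, 2.05, 2.33 and 2.56 in STD mice and at 1.24, 0.96, 1.37 and 2.07 in ATH mice. Here the groups touched, because ATH4 was above STD2, and the difference was -0.94 (SE 0.235, adjusted p = 0.0456, limma). Leaving out ATH4 was the only omission that kept the Gstm4 call, and the adjusted p rose as high as 0.112 without another array. For Gstm6 the call was lost without any array other than ATH1 or ATH2 (adjusted p up to 0.0818). The 5 other mu genes differed by -0.90 (Gstm2, adjusted p = 0.0546, limma) to -0.20 (Gstm3) and did not pass. The 2 probes of Gstm1 differed, the brighter giving -0.33 with groups that did not overlap and the other -0.06 with groups that did.

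Gsta3 was the only alpha class gene called. Alpha enzymes reduce lipid hydroperoxides and conjugate products of lipid peroxidation, and Gsta3 of the mouse is known for conjugating the activated form of aflatoxin. Its probe (chr1:21459782-21459841) read 8.78, 8.86, 8.87 and 8.68 in STD mice and 8.33, 8.41, 7.74 and 7.70 in ATH mice. The groups did not overlap, and ATH3 and ATH4 were further below STD than ATH1 and ATH2. Gsta3 fell by 0.75 (SE 0.188, adjusted p = 0.0454, limma), and its second probe gave -0.75 with an adjusted p of 0.0611. This call, too, was lost without any array other than ATH1 or ATH2 (adjusted p up to 0.111). The other alpha genes differed by -0.17 (Gsta4), -0.03 (Gsta1) and 0.36 (Gsta2), with groups that overlapped.

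None of the 5 genes of the kappa, omega, pi and zeta classes passed, although all had a lower mean on ATH (median -0.50, range -0.68 to -0.25). A lower mean was found for 67.0% of all detected probes. The mitochondrial Gstk1 differed by -0.68 (adjusted p = 0.0888), Gsto1, which reduces rather than conjugates many of its substrates, by -0.56, and Gstz1, the tyrosine breakdown enzyme maleylacetoacetate isomerase, by -0.50. Gstp1 differed by -0.49 with each of its 2 probes. For Gsto2 the brighter of 2 probes gave -0.25, and the dimmer was detected on 3 STD and 0 ATH arrays, so that it was not well above background on ATH and gives no exact difference.

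The Ugt1a locus held 3 of the genes and all 3 were called lower (median -0.90), where 4.94% of all detected probes were. The Ugt1a6b probe counted here was the brighter one, and whether it reads Ugt1a6b alone was not tested. Ugt1a9, whose enzyme glucuronidates phenols and fatty acids, was at -0.78, -1.82, -1.02 and -0.10 in STD mice. It was at -3.35, -3.81, -2.76 and -2.93 in ATH mice. The groups were well separated, although STD mice themselves spanned a wide range (SD 0.708). Ugt1a9 fell by 2.28 (SE 0.363, adjusted p = 0.0149, limma), 4.87-fold and the largest difference of all 44 genes, and without STD1 its adjusted p was just above 0.05 (0.05002). With normexp background correction its difference was -1.585.

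Ugt1a1, the enzyme that conjugates bilirubin, was at 3.05, 2.37, 2.44 and 2.86 in STD mice and at 2.06, 1.82, 1.91 and 1.33 in ATH mice. Again the groups did not overlap, and the difference was -0.90 (SE 0.213, adjusted p = 0.0410, limma). The call was lost without any array other than ATH1 or ATH2 (adjusted p up to 0.103). The brighter Ugt1a6b probe was at 8.02, 8.02, 7.72 and 7.84 in STD mice and at 7.47, 7.49, 7.07 and 6.88 in ATH mice. This is a difference of -0.67 (SE 0.170, adjusted p = 0.0472, limma) that passed only without ATH2 when single arrays were left out (adjusted p up to 0.120). The second Ugt1a6b probe was at -0.04, -0.44, -0.11 and -0.05 in STD mice and at -0.88, -0.96, -0.91 and -0.87 in ATH mice. Its groups did not overlap either, with a difference of -0.75 (SE 0.128, adjusted p = 0.0183, limma). All 4 probes of the locus were thus lower on ATH, by -2.28 at the Ugt1a9 probe and by -0.90 to -0.67 at the others, a contrast between probes that was not tested.

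Of the 8 Ugt2 genes on chromosome 5, whose enzymes conjugate steroids, bile acids and odorants, all had a lower mean on ATH, 4 had groups that did not overlap, and 1 was called (median -0.62). The shares over all detected probes were 67.0% with a lower mean, 13.8% with every ATH array below every STD array and 4.94% called lower. Ugt2b38 (chr5:87358365-87358424) was at 7.09, 7.05, 6.89 and 6.82 in STD mice and at 6.42, 6.28, 5.70 and 5.80 in ATH mice. ATH3 and ATH4 were the lowest, and Ugt2b38 fell by 0.91 (SE 0.184, adjusted p = 0.0274, limma). Its call was lost without any array other than ATH1 or ATH2 (adjusted p up to 0.0806). The other Ugt2 genes lay between -0.77 (Ugt2b5, adjusted p = 0.0603, limma) and -0.44 (Ugt2b35). The 3 probes of Ugt2a1 gave -0.70, -0.73 and -0.58, and the 2 probes of Ugt2b37 gave -0.52 and -0.78.

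Ugt3a1 and Ugt3a2, neighbours on chromosome 15, encode enzymes that use sugar donors other than UDP-glucuronic acid. Ugt3a1 (chr15:9389325-9389384) was at 5.34, 5.41, 5.32 and 5.45 in STD mice and at 4.74, 4.78, 4.46 and 4.32 in ATH mice. The STD mice were tightly grouped (SD 0.0607) and every ATH mouse was below them. Ugt3a1 fell by 0.81 (SE 0.137, adjusted p = 0.0179, limma), and the adjusted p was above 0.05 without STD1, STD3 or STD4, at most 0.0557. Ugt3a2 differed by -0.54 with its brighter probe (adjusted p = 0.0573) and by -0.96 with its dimmer probe (adjusted p = 0.0177, limma). Ugt8a, which makes galactosylceramide and belongs to the nervous system and kidney more than to the liver, was detected on 2 STD and 3 ATH arrays and differed by 0.21.

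The differences of the Sult genes ran from -1.26 to 0.85. Sult3a1 (chr10:33660082-33660141), an amine sulfotransferase, was called lower. It was at -4.68, -4.30, -5.17 and -4.68 in STD mice and at -5.67, -5.90, -5.99 and -6.16 in ATH mice. The probe was detected on all 4 STD arrays but on 1 ATH array, so the ATH values lie near background. It thus entered the fit through STD alone, and the size of its difference is uncertain: -1.22 (SE 0.195, adjusted p = 0.0152, limma) as scaled here and -0.52 with normexp background correction (adjusted p = 0.0175). Without STD1 the adjusted p was 0.0502.

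Sult5a1 (chr8:121784746-121784805) did not pass (adjusted p = 0.0820, limma) despite a difference of -1.26 (SE 0.398). It was at 2.79, 3.24, 2.55 and 2.48 in STD mice and at 2.34, 2.08, 0.44 and 1.15 in ATH mice. The groups did not overlap, but the ATH mice were widely spread (SD 0.874), with ATH3 lowest. Sult1e1, the estrogen sulfotransferase, had the largest positive difference of the 44 genes, 0.85 (SE 0.753, adjusted p = 0.482, limma), and did not pass. It was at -3.41, -3.41, -2.34 and -1.25 in STD mice and at -2.70, -2.95, 0.35 and -1.71 in ATH mice. The groups overlapped and ATH3 alone was above every STD mouse.

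Among the other Sult1 genes, Sult1b1, which sulfates thyroid hormone and small phenols, differed by -0.71 and -0.81 with its 2 probes, and the phenol sulfotransferase Sult1a1 by -0.65 (adjusted p = 0.0872, limma). Sult1c1 differed by -0.37, Sult1c2 by 0.58 and Sult1d1, an enzyme of catecholamines and eicosanoids, by 0.20. Sult1d1 was called higher with no scaling (0.65, adjusted p = 0.0182, limma), where 22.5% of all probes were, and with spike-in scaling (0.51, adjusted p = 0.0485), where 8.39% were. Sult4a1 differed by -0.33, Sult2a2, detected on 2 STD and 3 ATH arrays, by -0.39, and the cholesterol sulfotransferase Sult2b1 by 0.04.

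**Figure D3:**
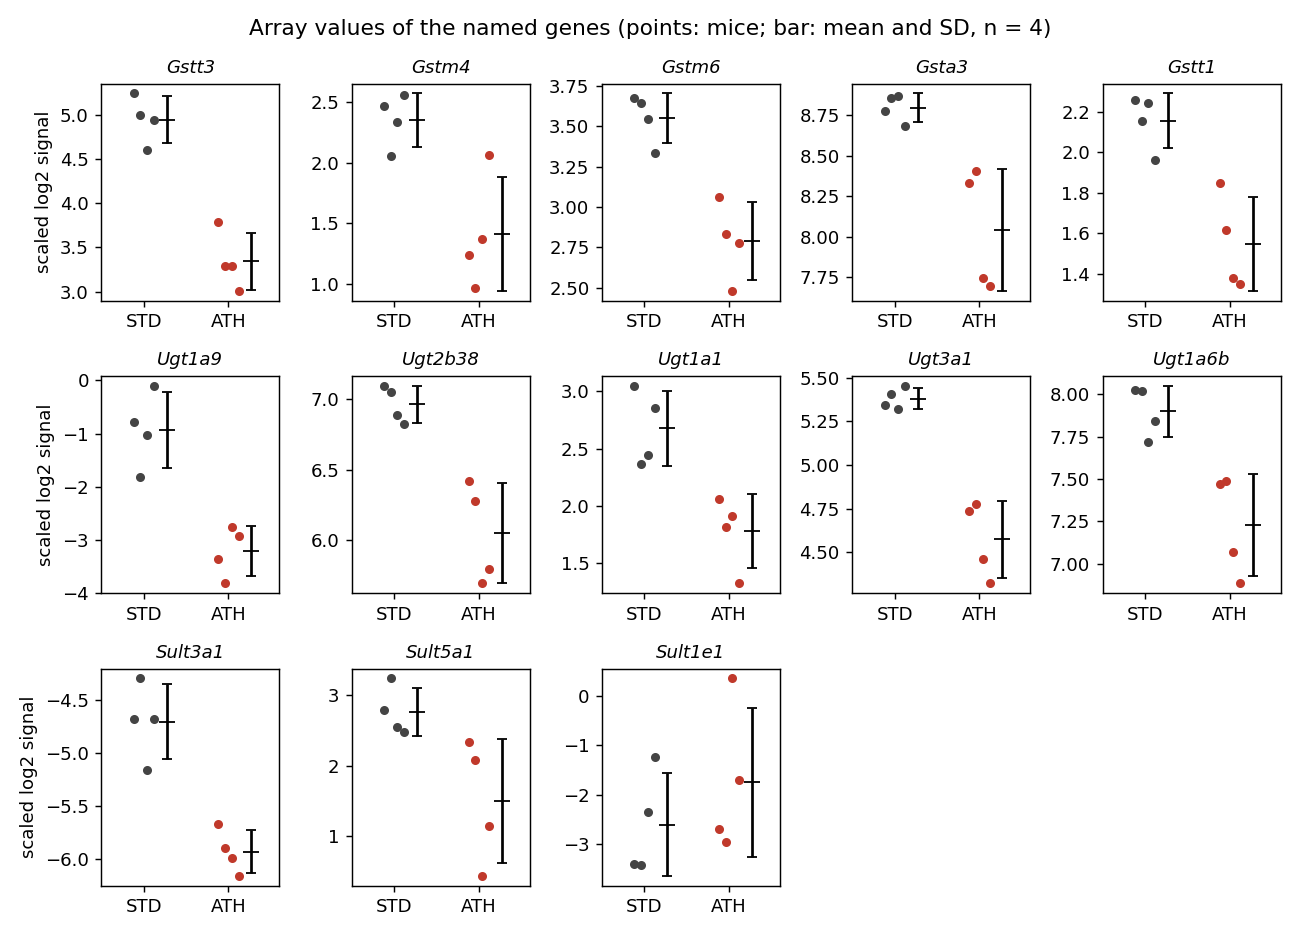
Scaled log2 signal (y axis, each panel with its own range) of the 11 genes called lower and of Sult5a1 and Sult1e1 on STD and ATH; points are mice, bars are the mean and SD of 4 mice. The groups are apart in every panel but those of Gstm4 and Sult1e1.

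The ATH mice did not contribute equally. Relative to each gene's STD mean, the median of the Ugt genes was -0.41, -0.26, -0.96 and -1.02 in ATH mice 1 to 4. For the Gst genes it was -0.31, -0.33, -0.78 and -0.48, and for the Sult genes -0.07, -0.34, -0.54 and -0.76. ATH3 or ATH4 was thus the lowest mouse in each family. ATH3 was the lowest of all 8 arrays for 21 of the 44 genes and ATH4 for 14, whereas ATH1 and ATH2 together were lowest for 4.

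The same 2 arrays had the highest macrophage marker sums, 9.39 in ATH3 and 9.57 in ATH4 against 8.31 in ATH1 and 7.46 in ATH2. They also had the lowest hepatocyte marker sums, 10.48 and 10.32 against 10.72 and 10.77. Both kinds of sum are of scaled signal, and sums per array with no scaling were not computed. Between the diets the median difference of the hepatocyte markers was -0.21 with scaling and 0.23 without. The 75th percentiles of ATH3 and ATH4 were the highest, at log2 values of 9.42 and 9.46 against 9.27 and 9.11, so that more was subtracted there. With no scaling the median of the Gst genes was 0.09, -0.09, -0.22 and 0.11 in ATH mice 1 to 4, and that of the Ugt genes was -0.01, -0.01, -0.41 and -0.43. For the Sult genes it was 0.33, -0.10, 0.01 and -0.17. The part that other cell types or the percentile had in the differences was not tested.

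**Figure D4:**
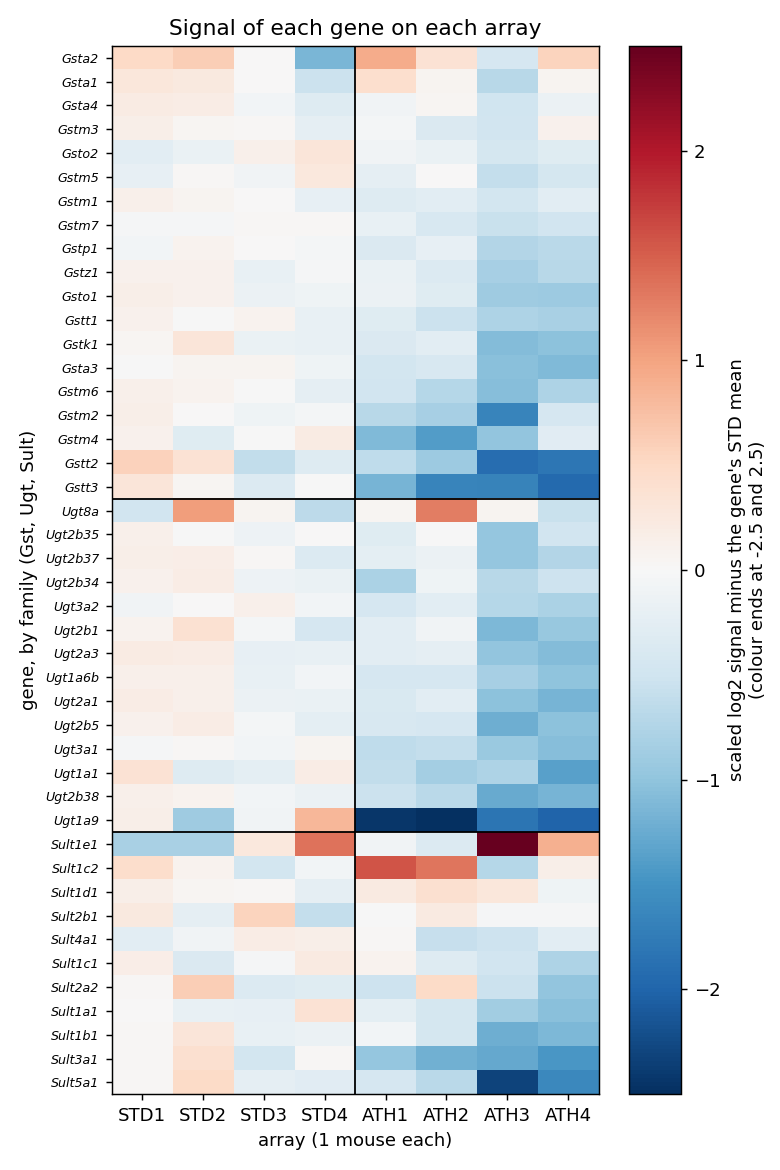
Scaled log2 signal of the 44 genes (rows, by family) on the 8 arrays (columns, 1 mouse each) minus the mean of the gene on STD; blue is lower and red higher, and the colour ends at -2.5 and 2.5. The ATH3 and ATH4 columns hold the most blue, with 21 and 14 genes at their lowest there.

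Promoters were read from RefSeq (build GRCm38.p6) as 250 bases before to 50 bases after the annotated start, 5′ to 3′ along the gene's strand. They were available for 38 of the 44 genes, as 48 promoters. Letters were searched on both strands for the core sites of NRF2 and Ahr and for basal and liver factor motifs, none of which contains the letters of another. The promoters of Gsta3, Ugt1a1 and Ugt1a9 are shown because these genes were called lower and are held as textbook targets of such sensors. In the Gsta3 promoter, at chr1:21240335-21240634 on the plus strand, capitals mark a match to the antioxidant response element core. The promoters of Ugt1a1, at chr1:88211709-88212008, and of Ugt1a9, at chr1:88070529-88070828, both on the plus strand, held none of the letters searched.
Gsta3: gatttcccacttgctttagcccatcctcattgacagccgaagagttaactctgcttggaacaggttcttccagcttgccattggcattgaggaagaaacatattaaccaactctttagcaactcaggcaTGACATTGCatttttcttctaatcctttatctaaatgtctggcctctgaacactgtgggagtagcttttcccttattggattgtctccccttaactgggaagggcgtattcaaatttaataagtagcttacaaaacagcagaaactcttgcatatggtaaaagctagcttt
Ugt1a1: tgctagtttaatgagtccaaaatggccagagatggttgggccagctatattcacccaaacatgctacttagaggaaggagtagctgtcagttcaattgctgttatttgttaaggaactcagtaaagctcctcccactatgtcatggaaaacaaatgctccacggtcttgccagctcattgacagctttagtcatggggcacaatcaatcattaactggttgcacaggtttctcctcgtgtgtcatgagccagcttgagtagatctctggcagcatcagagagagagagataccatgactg
Ugt1a9: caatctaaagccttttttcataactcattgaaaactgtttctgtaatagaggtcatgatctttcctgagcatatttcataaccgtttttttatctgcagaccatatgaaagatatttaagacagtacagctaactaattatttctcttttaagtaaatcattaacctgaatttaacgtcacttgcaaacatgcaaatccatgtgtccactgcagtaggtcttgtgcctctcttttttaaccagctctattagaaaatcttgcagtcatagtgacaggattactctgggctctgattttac
The antioxidant response element core, TGACNNNGC, was found in 3 of the 48 promoters (6.25%; Gsta3, Gstm5 and Gstm7) and in 12.4% of all 32851 promoters. The core of the Ahr site, TNGCGTG, was in 2 (4.17%; Gsta2 and Sult1d1) and in 5.07% of all. The TATA box TATAAA was in 8 (16.7%) and in 13.6% of all, and the HNF4 core CAAAGTCCA in 1 (Sult1b1) and in 0.475% of all. The direct repeat of nuclear receptor sites spaced by 1 base and the HNF1 site were in none, and in 13 and 3 of all promoters. A match describes letters, and the absence of a match applies to this window alone.

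The genes that supply, assist or reverse conjugation were read from the same fit, in which 4.94% of all detected probes were called lower and 3.06% higher. The enzymes and carriers that make and deliver the sulfate donor had 1 of 6 genes called: Papss2, a PAPS synthase, was at 0.96, 0.11, 0.51 and 0.62 in STD mice and at -0.90, -0.64, -0.63 and -0.46 in ATH mice. The groups did not overlap, and Papss2 fell by 1.20 (SE 0.190, adjusted p = 0.0145, limma), a call that held with each array left out in turn (adjusted p up to 0.0478) and with no scaling (-0.76, adjusted p = 0.0347, limma). Of 5 measured genes of glutathione supply, 3 microsomal glutathione transferases and 3 genes of glucuronic acid supply, 0 were called in either direction, with medians of -0.15, -0.34 and -0.22. With no scaling these medians turned to 0.30, 0.10 and 0.22, and Gss (0.66, adjusted p = 0.0145), Mgst2 (1.70, adjusted p = 0.0320) and Ugp2 (0.75, adjusted p = 0.0455, limma), named here after their values were seen, were called higher, as were 22.5% of all probes.

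Among 5 exporters of conjugates, Abcc3, which carries glucuronides across the basolateral membrane into blood, fell by 1.16 (SE 0.191, adjusted p = 0.0167, limma), and without STD3 its adjusted p was 0.0533. Of 9 other conjugating enzymes 2 were called lower, beside 4.94% of all detected probes. Nnmt, which methylates nicotinamide, fell by 1.03 (adjusted p = 0.0237, limma) and held in 4 of 8 omissions of an array. As3mt, which methylates arsenic, fell by 0.73 (adjusted p = 0.0473, limma) and held in 0 of 8. With no scaling Abcc3 still passed (-0.71, adjusted p = 0.0490, limma), whereas Nnmt (-0.59, adjusted p = 0.0591) and As3mt (-0.28, adjusted p = 0.300) did not. The 4 deconjugating enzymes had 0 called and a median of -0.18.

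None of the 13 measured regulators was called. Nfe2l2 differed by 0.45 (SE 0.158, adjusted p = 0.108, limma), and was called higher with no scaling (0.89, adjusted p = 0.0206). Nr1i2 differed by -0.76 (SE 0.582, adjusted p = 0.412), Nr1i3 by -0.67 (SE 0.299, adjusted p = 0.179) and Ahr by -0.31 (SE 0.194, adjusted p = 0.317, limma), all with overlapping groups. Of 11 oxidoreductases regarded as targets of the same regulators, 2 were called lower and 1 was called higher. Over all detected probes these shares were 4.94% and 3.06%. By mean 7 were lower and 4 were higher (median -0.13), where 67.0% of all detected probes had a lower mean. Ephx1, the microsomal epoxide hydrolase, fell by 0.73 (adjusted p = 0.0343, limma), Cyp1a2, a marker of Ahr activity, fell by 0.70 (adjusted p = 0.0305), and Cbr3, a carbonyl reductase, rose by 1.73 (adjusted p = 0.0431), which passed only without ATH2 when single arrays were left out (adjusted p up to 0.104). The Ephx1 and Cyp1a2 calls held in 3 of 8 such omissions each (adjusted p up to 0.0930 and 0.0771, limma) and were lost with no scaling, at -0.29 (adjusted p = 0.215) and -0.26 (adjusted p = 0.207). Srxn1 (0.44, adjusted p = 0.0775) and Akr1b8 (0.49, adjusted p = 0.0636, limma), named here after their values were seen, did not pass. Their ATH arrays were all above the STD arrays, as for 6.01% of all probes. With no scaling both, and Cbr3, were called higher (adjusted p = 0.0156, 0.0106 and 0.0199, limma), as were 22.5% of all probes. Hmox1 (1.29, adjusted p = 0.201) and Cyp1a1 (-0.27, adjusted p = 0.435, limma) did not pass.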

How the data were processed

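Livers of 4 STD and 4 ATH mice were hybridised to Agilent mouse one-colour arrays, and the authors deposited the scanner output of Agilent Feature Extraction (version 9.5) with spot intensity values on a linear scale, background-subtracted by that software, and a table of log2 values. That deposited log2 table had 31595 rows matched to probes and served as an alternative. On its rows of detected probes all values were the same log2 signals less a constant per array and per probe (tolerance 0.001). Here log2 of the processed signal minus each array's 75th percentile was used. Of 41174 non-control probes, the 31056 that were detected in 1 diet or both (on 3 or more of its 4 arrays) entered limma (3.58.1, R 4.3.3), with Benjamini-Hochberg adjustment over all of them at 5%, and at the methods' 1%. The probe of highest mean signal stood for a gene; 11 genes had more than 1 probe in the fit. All 44 genes had a probe in the fit, 41 of them detected on all 8 arrays, and no member probe was saturated. Of 59 member probes 56 were matched by accession to RefSeq names, all unchanged; the rest keep the file's name. Among 1694 pairs of probes of different members the highest count of matching bases was 31 of 60. This count does not show that the end of the Gsta1 probe nearly repeats the start of the Gsta2 probe. Binding to transcripts of paralogs was not tested. Members and gene lists were chosen with earlier results of these data known. Genes with values per mouse were up to 6 called genes per family and direction by size of difference, and for a family with fewer than 3 called also its 3 largest differences; pathway genes were named where called, plus Nfe2l2, Nr1i2, Nr1i3 and Ahr. On data simulated from these arrays limma at 5% recovered 46% of planted log2 changes of 1 and 87% of changes of 2, with 3 false among 136 calls. The simulated noise had the same SD in both diets and no shift shared by the probes of an array or slide. These arrays differ in that, so neither the recovered shares nor the false count carries over to them. P-values measure the spread between mice of 1 experiment. Alternatives were normexp background correction (offset 50), other scalings, no detection filter, detection on all 8 arrays, other probe choices, the methods' t-test, a replicate block and each array left out.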

Additional observations from a re-analysis of the deposited data

Results flagged for a closer look

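Among the 48 groups of 4 mice examined, 2 had a mouse far from the others, and chance alone flags about 1 in 20 such groups. For As3mt on ATH, the gap between ATH2 and the next mouse was 0.944 of the group's whole range, with values of 2.162, 2.001, 2.171 and 2.161 in ATH mice 1 to 4. For Nfe2l2 on ATH, ATH2 was again apart, by 0.847 of the range, with values of 4.01, 3.56, 3.94 and 3.97. No Gst, Ugt or Sult gene with values per mouse was among them.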

How the results depend on the processing

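The count of genes called lower at 5% (11) was 1 to 17 with each array left out: 1 without STD1, 3 without STD3 or STD4, 4 without STD2 or ATH3, 5 without ATH4, 9 without ATH1 and 17 without ATH2. It was 20 with normexp, 4 with no scaling, 4 after spike-in scaling, 5 after quantile normalization, 6 after median scaling, 6 with no detection filter and 0 with the methods' t-test (lowest adjusted p 0.0589; 23 lower at an unadjusted p under 0.05). It was 11 with the deposited log2 values, 14 on probes detected on all 8 arrays, 13 with the mean of probes and 12 with the second brightest probe. The last 2 counts include Gsto2 through its dimmer probe, detected on 3 STD and 0 ATH arrays. That probe entered the fit through STD alone, so this gain adds no support. The share of all probes called lower was counted only for the scalings and the replicate block. For the other settings a change in the count cannot be told apart from a change in calls over all probes. The count called higher (0) was 1, Sult1d1, with no scaling and with spike-in scaling. The count at 1% (1) was 3 with normexp and 0 with no scaling, spike-in scaling, no detection filter, the methods' t-test and the replicate block, and 0 to 2 with an array left out. The median of the Gst genes was -0.0581 with no scaling, -0.193 after spike-in scaling and -0.279 after quantile normalization. The median of the Ugt genes was -0.34 with spike-in scaling and -0.21 with no scaling. The median of the Sult genes was -0.0553 with spike-in scaling and reversed to 0.0796 with no scaling. The cause was not tested.

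Replicate numbers are shared by the diets and coincide with the position on the slide. Deviations of same-numbered arrays correlated at 0.10, 0.23, 0.18 and 0.17, and each STD array correlated best with the ATH array of its own number. The best STD partner of each ATH array was not looked up. This is a hint from the data, but the labels do not pair the mice. With the replicate number as a block 8 genes were called lower (2.59% of all probes): Gsta3, Gstt1, Ugt1a1 and Ugt1a6b no longer passed and Gstt2 did (adjusted p = 0.0189, limma).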
